A study of Mus musculus with 9 samples.

Results

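The 41 genes described here encode proteins of the skeletal muscle fibre: the thick and thin filaments, the Z-disc and titin, calcium handling and energy metabolism, with the transcription factor Tbx1, which acts in the branchiomeric muscles of the head. They were chosen by name, with results from the same libraries known, because several of them had stood higher in treated than in Fc libraries. The contrasts of ABTAA and VEGF Trap with Fc therefore describe the members and do not test them. All 41 symbols were found among the 24421 in the count tables, and 39 of them were among the 14054 genes that passed the filter on low counts. Myh7 and Actn2 did not pass.

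The libraries came from mouse eyes with choroidal neovascularization (CNV) after laser injury, where a burn breaks the Bruch membrane under the retina and vessels grow in from the choroid. All animals were male and 8 weeks old, and every group carried 4 burns per eye and an intravitreal dose of 5 µg of a reagent, so no group was free of injury or injection. The reagents were Fc as the control (3 libraries), ABTAA, which captures angiopoietin 2 and switches on Tie2, a receptor of endothelial cells (3 libraries), and VEGF Trap, a decoy that soaks up vascular endothelial growth factor (3 libraries). The lesion with a margin of retinal pigment epithelium (RPE) and choroid was taken out by laser capture microdissection, and messenger RNA was read from its 3′ ends. Strain and genotype were not given in the sources used here, and the labels do not say which animal each library came from. The p-values therefore reflect the spread among these libraries, part or all of which may be technical.

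Total counts ran from 6335805 to 14439835 per library, at which 3 counts correspond to 0.209 to 0.469 CPM (read counts normalised for depth, with TMM factors), a floor that covers counting error only. To describe the labelled tissue, 8 RPE markers were summed, which together held 1270 to 2360 CPM in every library. Single markers ran from a mean of 0.636 CPM (Best1, at 0 in Fc 3) to 741 CPM (Rgr). No threshold was set for the sum. Titles put 3 libraries in the Fc group, although the headings inside their tables name controls of a knockout. In 10 of the 41 members every count was a multiple of the same whole number above 1 (4 for Tnnt3, 3 for Eno3, Mb, Smpx and Tbx1, and 2 for Acta1, Tnni1, Xirp2, Mybpc1 and Cacna1s), as in 14.5% of the genes with a count in every library. Counting error is then larger than the counts show. Levels of different genes are set together here only to choose which genes to describe and in ranges, sums and shares. All sums of CPM use the counts undivided, those of Tnnt3 and Acta1 among them.

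In a striated muscle fibre, myosin heads of the thick filament pull on actin of the thin filament when calcium released from the sarcoplasmic reticulum binds troponin C. Fast and slow fibres use different genes for the same part: fast and slow troponins and myosin heavy chains, and, in fast fibres, the calcium pump Atp2a1 and the calcium buffer Pvalb. Skeletal fibres are not a component of the RPE or choroid, while the extraocular muscles, which move the eye and carry the heavy chain Myh13, insert on the sclera outside them.

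Members lie in families along the genome (GENCODE M21, GRCm38, the build named mm10). Of the heavy chains, 6 stand on the plus strand of chromosome 11, from Myh3 (67078300 to 67102291) through Myh2, Myh1, Myh4 (67238029 to 67260446) and Myh8 to Myh13 (67321658 to 67371586). The fast troponin genes Tnni2 (142441808 to 142444410) and Tnnt3 (142498836 to 142516009) are neighbours on chromosome 7. On chromosome 1 the slow troponin I gene Tnni1 (135779434 to 135810989) stands before the cardiac troponin T gene Tnnt2 (135836354 to 135852260).

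Promoters are shown for 5 members that bear on the results below: the skeletal actin gene, a fast heavy chain, a fast light chain, the fast-fibre calcium buffer and the cardiac-type troponin. Each runs from 250 bases before the start of transcription to 50 bases after it, in RefSeq on GRCm38.p6, and capitals mark matches to the motifs searched on both strands: the MEF2 site, the CArG box bound by serum response factor, the E-boxes CAGCTG and CACCTG bound by myogenic factors, and the MCAT box CATTCC. Tnnt2 and Pvalb have more than 1 RefSeq start, of which 1 is shown.
Acta1, chr8:123894726-123895025, minus strand: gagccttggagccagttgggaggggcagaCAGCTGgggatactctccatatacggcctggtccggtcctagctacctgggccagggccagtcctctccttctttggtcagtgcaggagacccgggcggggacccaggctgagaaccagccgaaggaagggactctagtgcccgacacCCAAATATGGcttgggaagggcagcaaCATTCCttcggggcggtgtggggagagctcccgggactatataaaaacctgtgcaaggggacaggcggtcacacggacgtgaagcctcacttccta
Myh4, chr11:67237562-67237861, plus strand: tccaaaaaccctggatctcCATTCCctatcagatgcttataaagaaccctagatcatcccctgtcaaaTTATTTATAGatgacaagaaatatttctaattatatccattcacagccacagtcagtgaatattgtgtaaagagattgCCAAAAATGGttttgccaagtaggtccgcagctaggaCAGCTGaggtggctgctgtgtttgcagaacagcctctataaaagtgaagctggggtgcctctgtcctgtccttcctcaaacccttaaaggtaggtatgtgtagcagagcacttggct
Mylpf, chr7:127211358-127211657, plus strand: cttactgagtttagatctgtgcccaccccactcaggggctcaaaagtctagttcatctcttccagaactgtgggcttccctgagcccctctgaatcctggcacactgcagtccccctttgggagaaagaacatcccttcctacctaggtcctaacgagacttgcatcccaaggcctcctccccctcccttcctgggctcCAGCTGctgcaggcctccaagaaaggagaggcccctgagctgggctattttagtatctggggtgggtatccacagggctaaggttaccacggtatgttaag
Pvalb, chr15:78206351-78206650, minus strand: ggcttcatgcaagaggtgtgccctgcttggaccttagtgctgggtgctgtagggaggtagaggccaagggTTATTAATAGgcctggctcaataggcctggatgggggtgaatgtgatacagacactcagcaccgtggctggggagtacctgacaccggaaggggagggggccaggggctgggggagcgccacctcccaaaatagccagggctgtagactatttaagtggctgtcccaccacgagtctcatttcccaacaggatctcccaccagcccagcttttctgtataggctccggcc
Tnnt2, chr1:135836084-135836383, plus strand: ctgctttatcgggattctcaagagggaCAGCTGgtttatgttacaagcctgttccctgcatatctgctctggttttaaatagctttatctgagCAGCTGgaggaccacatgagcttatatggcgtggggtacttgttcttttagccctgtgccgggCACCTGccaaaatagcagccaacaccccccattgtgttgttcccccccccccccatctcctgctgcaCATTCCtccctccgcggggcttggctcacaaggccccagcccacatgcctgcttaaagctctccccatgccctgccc

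Counted from the first transcribed base, with -1 for the base before it, the promoter of Acta1 held the E-box CAGCTG from -221, a CArG box from -73 and an MCAT box from -46. That of Myh4 held an MCAT box from -231, a MEF2 site from -182, a CArG box from -104 and the E-box CAGCTG from -67. Mylpf held the E-box CAGCTG from -51 and none of the other motifs, and Pvalb held a MEF2 site from -180 alone. Tnnt2 held CAGCTG from -223 and from -157, CACCTG from -94 and an MCAT box from -27. At the starts not shown, Pvalb held none of these motifs and Tnnt2 held CACCTG from 10 alone.

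Of the 41 members, 32 were in the promoter table. A MEF2 site was found in 7 of them (21.9%), against 3.70% of the 27025 genes in the table, and a CArG box in 4 (12.5%), against 1.81%. The E-box CAGCTG was found in 14 (43.8%), against 18.3% of genes, CACCTG in 10 (31.2%), against 22.6%, and the MCAT box in 12 (37.5%), against 16.6%. The E-box CAGCTG reads the same on both strands, and 0 matches of 2 different motifs overlapped in the members' promoters. A match describes these letters and is not a bound site.

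Across the 9 libraries the members stood higher in both treated groups than in Fc. Their summed level was 329, 246 and 367 CPM in Fc 1, 2 and 3, it was 463, 875 and 741 CPM in ABTAA 1, 2 and 3, and it was 492, 709 and 419 CPM in VEGF Trap 1, 2 and 3. All 6 treated libraries lay above the highest Fc library, and the ABTAA and VEGF Trap libraries overlapped. In bulk RNA, a change in the number of muscle cells and a change in RNA per cell cannot be told apart.

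In ABTAA against Fc, the log2 fold change was above 0 for 37 of the 39 members that passed the filter, with a median of 0.99 (range -0.38 to 2.16), beside a median of 0.00 over all genes. At an adjusted p of 0.05 (edgeR quasi-likelihood test, Benjamini-Hochberg over all genes), 12 members were called higher and 0 lower, beside 0.847% of all genes called higher. The 12 were Acta1, Ckm, Myh4, Mylpf, Tnnt2, Tnnt3, Tnnc2, Atp2a1, Pvalb, Tcap, Xirp2 and Tbx1. In 23 members every ABTAA library lay above every Fc library, as in 11.7% of all genes. Because this contrast chose the members, nothing is read from these counts. With 1 library left out, 0 of the 12 calls were kept (Fc 2 or ABTAA 2), 4 (Fc 3), 6 (Fc 1 or ABTAA 3), 9 (VEGF Trap 2) or 10 (ABTAA 1, where Tnnt2 and Xirp2 were lost and Tnni2 and Ttn were called). With counts divided by their common divisor, Xirp2 (adjusted p = 0.0504, edgeR) and Tbx1 (adjusted p = 0.0544, edgeR) were lost. The direction of the medians did not turn, and they stayed between 0.82 and 1.24 when any 1 library was left out.

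In VEGF Trap against Fc, 38 of the 39 members had a fold change above 0, with a median of 0.75 (range -0.77 to 1.55), beside 0.00 over all genes. Acta1, Tnnt3 and Atp2a1 were called higher and 0 members lower, beside 0.512% of all genes called higher. In 13 members the VEGF Trap libraries all lay above the Fc libraries, as in 10.4% of all genes. All 3 calls were lost without Fc 1, Fc 2, ABTAA 3 or any 1 of the VEGF Trap libraries, and Atp2a1 alone was kept without Fc 3, with medians of 0.57 to 0.87 when any 1 library was left out. Pvalb was called in their place without VEGF Trap 1, and Xirp2 without VEGF Trap 3. Of all genes 144 were called, but 18 without Fc 1, 7 without Fc 2, 32 without Fc 3 and 144 without ABTAA 3. The same count was 62, 60 and 25 without VEGF Trap 1, 2 and 3. Both contrasts share the 3 Fc libraries.

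**Figure D1:**
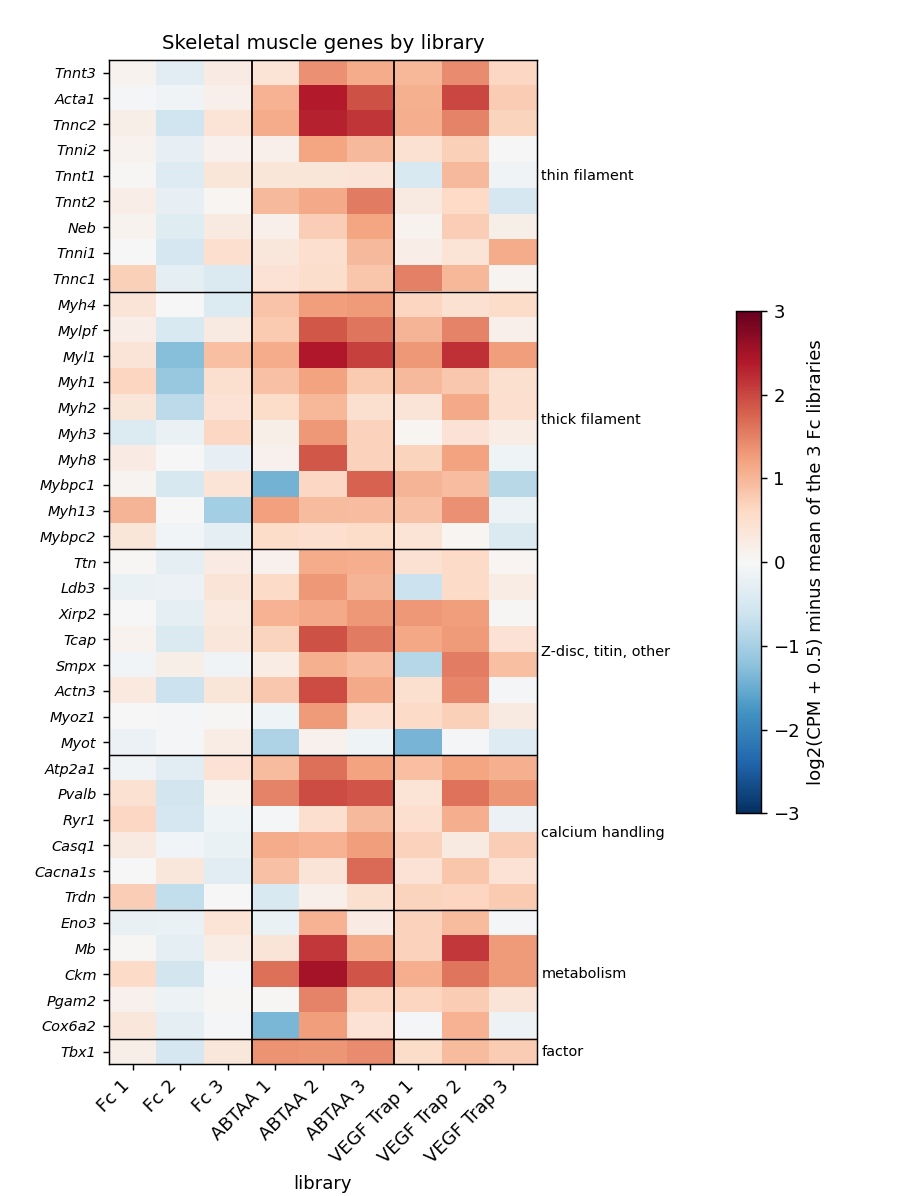
Level of the 39 members that passed the filter in each library, as log2(CPM + 0.5) minus the mean of the 3 Fc libraries; rows are genes grouped by role and columns are libraries. ABTAA 2 held the highest value of the 9 libraries for 20 members, and Fc 2 the lowest for 22.

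Among the thin filament genes, Acta1, the skeletal muscle actin, was at 23.1, 21.9 and 26.2 CPM in Fc 1, 2 and 3, at 49.1, 126 and 90.6 CPM in ABTAA, and at 49.9, 96.5 and 40.4 CPM in VEGF Trap. Every treated library was above every Fc library, and library 2 was the highest of each treated group. The log2 fold change was 1.90 ± 0.32 (SE) in ABTAA and 1.40 ± 0.31 in VEGF Trap.

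Tnnt3, the fast troponin T, which ties the troponin complex to tropomyosin, was at 54.5, 40.0 and 60.7 CPM in Fc, 67.7, 132 and 111 CPM in ABTAA, and 102, 136 and 78.7 CPM in VEGF Trap. Its groups did not overlap with Fc, and the fold changes were 1.0 ± 0.23 and 1.03 ± 0.23 on the log2 scale. Tnnc2, the fast troponin C that binds calcium, was at 9.24, 5.17 and 11 CPM in Fc, 18.0, 42.2 and 37.2 CPM in ABTAA, and 17.7, 23.6 and 13.2 CPM in VEGF Trap. All treated libraries again exceeded Fc, with log2 fold changes of 1.93 ± 0.32 and 1.11 ± 0.32. Ube2c, whose exons overlap Tnnc2 on the other strand, had a log2 fold change of -0.18 ± 0.20 in ABTAA.

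Tnni2, the fast inhibitory troponin, was at 14.1, 11 and 14.3 CPM in Fc, 14.5, 30.2 and 26.1 CPM in ABTAA, and 18.0, 21.6 and 13.2 CPM in VEGF Trap. ABTAA 1 lay just above the highest Fc library and VEGF Trap 3 inside the Fc range, with log2 fold changes of 0.84 ± 0.25 and 0.43 ± 0.25. Neb, the giant protein that runs along the thin filament, ranged from 1.95 to 6.72 CPM, with ABTAA overlapping Fc.

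The slow troponins overlapped between groups. Tnnt1, the slow troponin T, was at 14.6, 10.7 and 18.5 CPM in Fc, 18.6, 18.4 and 19.2 CPM in ABTAA, and 10.3, 28.6 and 13.3 CPM in VEGF Trap. The ABTAA libraries differed little among themselves and stood at the top of the Fc range, while VEGF Trap held both the lowest and the highest value of the 9, with log2 fold changes of 0.36 ± 0.30 and 0.27 ± 0.30. Tnni1, the slow inhibitory troponin, was at 1.68, 1.02 and 2.59 CPM in Fc, 2.27, 2.58 and 3.75 CPM in ABTAA, and 1.99, 2.37 and 4.16 CPM in VEGF Trap. Tnnc1, the troponin C of slow and cardiac muscle, was at 1.96, 0.763 and 0.610 CPM in Fc, 1.55, 1.68 and 2.19 CPM in ABTAA, and 3.81, 2.51 and 1.11 CPM in VEGF Trap. For both genes the groups overlapped, and the standard errors of 0.47 to 0.58 on the log2 scale were near the size of the ABTAA fold changes, 0.67 and 0.70. In VEGF Trap the log2 fold changes were 0.65 ± 0.47 for Tnni1 and 1.19 ± 0.56 for Tnnc1.

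Tnnt2, the cardiac troponin T, which developing skeletal muscle also expresses, had another pattern. It was at 8.40, 6.10 and 7.55 CPM in Fc, 14.9, 16.5 and 22.5 CPM in ABTAA, and 8.95, 11.3 and 4.99 CPM in VEGF Trap. The ABTAA libraries lay above all 6 others, and VEGF Trap overlapped Fc, with log2 fold changes of 1.28 ± 0.27 and 0.22 ± 0.27.

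Among the thick filament genes, Myh4, the heavy chain of the fastest (IIb) fibres, was at 10.9, 8.31 and 6.10 CPM in Fc, 15.3, 20.2 and 20.5 CPM in ABTAA, and 13.1, 11.5 and 12.3 CPM in VEGF Trap. The 3 groups did not overlap, with ABTAA the highest and VEGF Trap between, and the log2 fold changes against Fc were 1.15 ± 0.22 and 0.55 ± 0.22. Myh1, the IIx heavy chain, was at 7.65, 1.87 and 6.79 CPM in Fc, 9.08, 11.6 and 8.44 CPM in ABTAA, and 9.77, 8.63 and 6.79 CPM in VEGF Trap. Fc 2 was the lowest of the 9 and VEGF Trap overlapped Fc, with log2 fold changes of 0.84 ± 0.37 and 0.64 ± 0.37. Within the last 200 bases of their transcripts, Myh1 and Myh4 matched each other over 131 bases at 96.2% identity, so reads of these genes may have been split between them.

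Mylpf, the fast regulatory light chain, was at 7.09, 4.32 and 7.48 CPM in Fc, 11, 23.6 and 19.8 CPM in ABTAA, and 13, 18.2 and 6.93 CPM in VEGF Trap. ABTAA did not overlap Fc, and VEGF Trap 3 did, with log2 fold changes of 1.52 ± 0.34 and 1.04 ± 0.34. Myl1, the fast essential light chain, was at 5.41, 1.36 and 8.01 CPM in Fc, 9.39, 23.5 and 18.4 CPM in ABTAA, and 10.7, 20.3 and 10.4 CPM in VEGF Trap. All treated libraries exceeded Fc, yet the spread within Fc was 5.90-fold, and the log2 fold changes were 1.78 ± 0.46 and 1.49 ± 0.46. Myh2, the IIa heavy chain, and Mybpc2, the fast myosin-binding protein C, ranged from 1.53 to 7.17 and from 0.693 to 1.88 CPM over the 9 libraries.

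The developmental heavy chains, which mark embryonic, newborn and regenerating fibres and remain in adult extraocular muscle, overlapped between groups. Myh3, the embryonic form, was at 1.40, 1.70 and 3.43 CPM in Fc, 2.37, 5.75 and 3.59 CPM in ABTAA, and 2.15, 2.92 and 2.49 CPM in VEGF Trap. Myh8, the perinatal form, was at 1.59, 1.27 and 0.992 CPM in Fc, 1.44, 5.94 and 2.34 CPM in ABTAA, and 2.32, 3.55 and 1.11 CPM in VEGF Trap. For both, ABTAA 2 was the highest of the 9, and the ABTAA log2 fold changes were 0.83 ± 0.44 and 1.35 ± 0.57.

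Myh13, the extraocular heavy chain, was at 1.87, 0.678 and 0.0763 CPM in Fc, 2.27, 1.78 and 1.72 CPM in ABTAA, and 1.66, 2.51 and 0.554 CPM in VEGF Trap. These values rest on 20, 8 and 1 counts in Fc, 22, 18 and 11 in ABTAA, and 20, 36 and 4 in VEGF Trap. Fc 1 lay above 2 of the ABTAA libraries, and the log2 fold changes of 1.17 ± 0.75 and 0.93 ± 0.74 were near the size of their standard errors. Mybpc1, the slow myosin-binding protein C, was at 1.49, 0.848 and 1.98 CPM in Fc, 0.206, 2.38 and 5.94 CPM in ABTAA, and 3.31, 3.06 and 0.554 CPM in VEGF Trap, with the lowest and the highest of the 9 libraries both in ABTAA. Myh7, the slow and cardiac heavy chain, did not pass the filter, with 1 to 17 counts per library, and the end of its transcript matched that of Myh6.

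Of the Z-disc and titin genes, Ttn, the titin spring that spans the sarcomere from Z-disc to M-line, was at 62.8, 50.4 and 72.5 CPM in Fc, 67.1, 134 and 130 CPM in ABTAA, and 83.6, 91.2 and 63.7 CPM in VEGF Trap. ABTAA 1 and VEGF Trap 3 lay within the Fc range, and the log2 fold changes were 0.83 ± 0.22 and 0.36 ± 0.22. Ldb3, a Z-disc scaffold protein also found in heart, was at 18.9, 19.1 and 28.5 CPM in Fc, 32.7, 54.5 and 44.5 CPM in ABTAA, and 13.7, 32.7 and 25.6 CPM in VEGF Trap. As for Tnnt2, ABTAA lay above Fc and VEGF Trap overlapped it, with log2 fold changes of 0.98 ± 0.27 and 0.11 ± 0.27.

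Tcap, the cap of titin at the Z-disc, was at 4.39, 2.88 and 5.26 CPM in Fc, 6.81, 16.7 and 13 CPM in ABTAA, and 9.77, 10.5 and 5.68 CPM in VEGF Trap. Both treated groups lay above Fc, by log2 fold changes of 1.54 ± 0.34 and 1.06 ± 0.34. Xirp2, an actin-binding protein of muscle attachment sites, was at 7.84, 6.27 and 9.61 CPM in Fc, 16.7, 17.6 and 20 CPM in ABTAA, and 19.9, 19.4 and 8.03 CPM in VEGF Trap. Here the 3 ABTAA libraries were close to each other and VEGF Trap 3 fell within Fc, with log2 fold changes of 1.19 ± 0.28 and 1.01 ± 0.28. Smpx, Actn3, Myoz1 and Myot, the other members of this role that passed, had ABTAA log2 fold changes of 0.83, 1.52, 0.99 and -0.38, and Actn2 did not pass the filter, with 0 counts in Fc 1.

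Of the calcium-handling genes, Atp2a1, the fast-fibre calcium pump of the sarcoplasmic reticulum, was at 7.93, 6.70 and 11.7 CPM in Fc, 16.9, 28.0 and 20.3 CPM in ABTAA, and 16.3, 20.2 and 18.6 CPM in VEGF Trap. Treated libraries all exceeded Fc, with log2 fold changes of 1.30 ± 0.23 and 1.06 ± 0.23. Rabep2, whose exons overlap Atp2a1 on the other strand, stood higher too, by 0.92 ± 0.21 and 0.84 ± 0.21, and reads of the pair cannot be told apart without the strand setting of the counting. Pvalb, the calcium buffer that speeds relaxation, was at 3.92, 1.70 and 2.98 CPM in Fc, 8.56, 12.1 and 11.4 CPM in ABTAA, and 3.81, 9.54 and 7.62 CPM in VEGF Trap. ABTAA did not overlap Fc and VEGF Trap 1 lay within it, with log2 fold changes of 1.90 ± 0.36 and 1.29 ± 0.36.

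Ryr1, the calcium release channel, was at 4.48, 1.78 and 2.44 CPM in Fc, 2.58, 4.06 and 5.78 CPM in ABTAA, and 4.06, 6.40 and 2.35 CPM in VEGF Trap, with overlapping groups. Casq1, the calcium store protein of fast fibres, was at 1.68, 1.19 and 1.07 CPM in Fc, 3.41, 3.17 and 3.75 CPM in ABTAA, and 2.40, 1.67 and 2.49 CPM in VEGF Trap. Its ABTAA libraries stood above the other 6, with a log2 fold change of 1.39 ± 0.42, but it was not among the genes called. Cacna1s, the voltage sensor of the T-tubule, and Trdn, which anchors the release complex, had ABTAA log2 fold changes of 1.33 ± 0.52 and -0.05 ± 0.70.

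Of the metabolic genes, Ckm, the muscle creatine kinase that buffers ATP, was at 4.85, 1.95 and 2.98 CPM in Fc, 10.7, 19.8 and 12.8 CPM in ABTAA, and 7.12, 10.4 and 8.17 CPM in VEGF Trap. The ABTAA libraries lay above all others and VEGF Trap above Fc, with log2 fold changes of 2.16 ± 0.32 and 1.40 ± 0.33. A930016O22Rik, which overlaps an exon of Ckm on the other strand, had log2 fold changes of 1.83 ± 0.31 and 0.98 ± 0.31 at 2.29 to 13.1 CPM, and the reads of these genes may likewise be shared. Mb, the oxygen store myoglobin, was at 6.72, 5.34 and 7.78 CPM in Fc, 8.67, 30.3 and 15.0 CPM in ABTAA, and 10.9, 30.3 and 16.6 CPM in VEGF Trap. All treated libraries exceeded Fc, with library 2 of each treated group far above the rest, and the log2 fold changes of 1.45 ± 0.41 and 1.55 ± 0.40 were not called in ABTAA or VEGF Trap. Exons of Apol6 and Gm49540 overlap Mb on the other strand, and its transcript end matched Gm49540 over 109 bases at 100% identity. Apol6 had log2 fold changes of 0.16 ± 0.42 in ABTAA and -0.41 ± 0.43 in VEGF Trap. Of the 41 members, 16 overlapped an exon on the other strand.

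Eno3, the muscle enolase, was at 10.1, 10.2 and 16.0 CPM in Fc, 10.2, 24.7 and 14.1 CPM in ABTAA, and 19.4, 23.4 and 11.6 CPM in VEGF Trap. Pgam2, the muscle phosphoglycerate mutase, was at 2.80, 2.20 and 2.59 CPM in Fc, 2.58, 8.03 and 4.22 CPM in ABTAA, and 4.22, 4.59 and 3.46 CPM in VEGF Trap. Both glycolytic enzymes had an ABTAA 1 library at the Fc level, and the ABTAA log2 fold changes were 0.43 ± 0.31 and 0.97 ± 0.39. Cox6a2, the heart and muscle subunit of cytochrome oxidase, spanned 0.310 to 4.46 CPM, both extremes within ABTAA.

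Tbx1 was at 5.60, 3.31 and 6.41 CPM in Fc, 13.3, 13.1 and 14.1 CPM in ABTAA, and 7.45, 10 and 8.73 CPM in VEGF Trap. The 3 groups did not overlap, and the ABTAA libraries differed from each other by 1.08-fold, where Acta1 differed by 2.57-fold. Other members ran from 1.04-fold (Tnnt1) and 1.05-fold (Mybpc2) to 28.8-fold (Mybpc1) in ABTAA. The log2 fold changes of Tbx1 against Fc were 1.40 ± 0.25 and 0.77 ± 0.25. Its counts are all multiples of 3, so fewer reads may lie behind them than they show, and with the counts divided by 3 the gene was no longer called in ABTAA (adjusted p = 0.0544, edgeR).

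**Figure D2:**
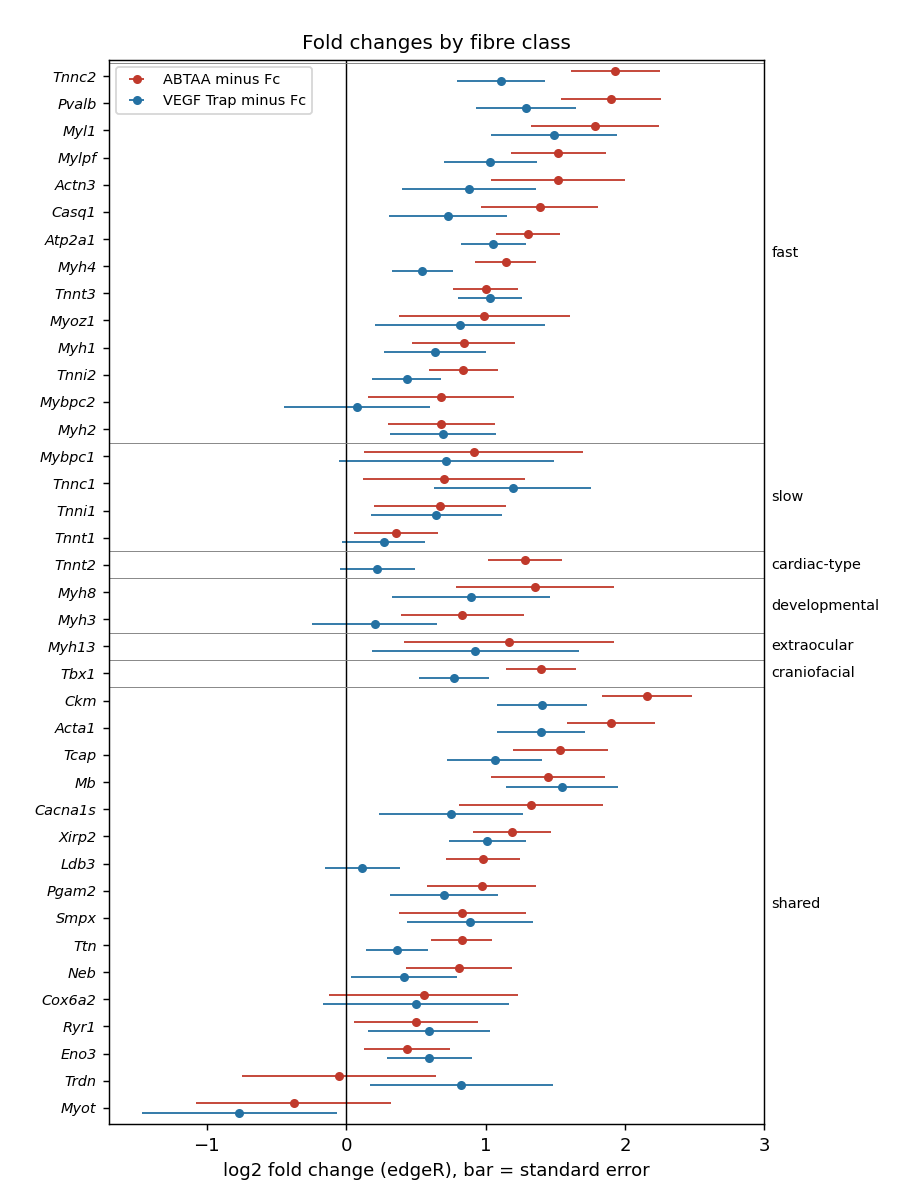
Log2 fold changes of ABTAA and VEGF Trap against Fc (edgeR, bars are the standard error) for the 39 members that passed the filter, grouped by fibre class and ordered by the ABTAA value. The fast members lie between 0.68 and 1.93 in ABTAA and the slow members between 0.36 and 0.91, and both contrasts share the Fc libraries.

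By fibre class, the 14 fast members had a median log2 fold change of 1.22 in ABTAA and 0.85 in VEGF Trap, and 13 of them lay wholly above Fc in ABTAA and 6 in VEGF Trap, beside 11.7 and 10.4% of all genes. Of the 5 slow members, 4 passed the filter, with medians of 0.69 and 0.68, and 0 lay wholly above Fc in either group. The 2 developmental heavy chains had medians of 1.09 and 0.55, with 0 wholly above Fc. At the shares over all genes, a count of 0 among 4 or 2 members sets neither class apart. The 17 members shared between fibre types, of which 16 passed, had medians of 0.90 and 0.72. The difference between the classes was not tested. Of the slow members, Tnni1, Tnnc1 and Mybpc1 had mean levels of 1.80 to 2.49 CPM, where standard errors were 0.47 to 0.79, against a median standard error of 0.38 over the members.

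The summed level of the slow members was 20.1, 13.5 and 24 CPM in Fc, 23.7, 25.2 and 31.4 CPM in ABTAA, and 19.8, 37.7 and 19.7 CPM in VEGF Trap. That of the fast members was 131, 86.0 and 139 CPM in Fc, 185, 347 and 290 CPM in ABTAA, and 217, 287 and 178 CPM in VEGF Trap. The fast sum did not overlap between Fc and either treated group, and the slow sum did. Each sum leaned on 1 gene: in Fc 1, Tnnt1 held 14.6 of the 20.1 CPM of the slow members. Tnnt3 held 54.5 of the 131 CPM of the fast members there, with its counts, all multiples of 4, left undivided.

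Shares of the fast form within a pair were compared between libraries, with exact binomial 95% intervals that cover counting error only. Since genes may differ in how their 3′ ends are captured and counted, a share is not read as a share of molecules. For troponin I, with the Tnni1 counts divided by their common divisor of 2, the fast share was 94.4, 95.6 and 91.7% in Fc, 92.8, 95.9 and 93.3% in ABTAA, and 94.8, 94.8 and 86.4% (interval 78.5 to 92.2%) in VEGF Trap. For troponin C it was 82.5, 87.1 and 94.7% in Fc, 92.1, 96.2 and 94.4% in ABTAA, and 82.3, 90.4 and 92.2% in VEGF Trap. The groups overlapped for both troponins. With the Tnni1 counts as deposited, the troponin I share was 84.7 to 91.5% in Fc, 86.5 to 92.1% in ABTAA and 76 to 90.1% in VEGF Trap, which also overlap.

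For troponin T, with the Tnnt3 counts divided by 4, the fast share was 48.3% (42.6 to 54.1), 48.4% (41.9 to 54.8) and 45% (40.3 to 49.8) in Fc. It was 47.7% (42.3 to 53.1), 64.2% (59.9 to 68.4) and 59.1% (53.3 to 64.7) in ABTAA, and 71.3% (66.8 to 75.5), 54.3% (51.0 to 57.6) and 59.7% (53.1 to 66.0) in VEGF Trap. The VEGF Trap libraries lay above Fc and ABTAA 1 lay within Fc, so that 5 of the 6 treated libraries lay above all 3 Fc libraries. With the counts as deposited the share was 76.6 to 78.9% in Fc, 78.5 to 87.8% in ABTAA and 82.6 to 90.9% in VEGF Trap, with the same libraries above Fc. The members were chosen on these contrasts, and no test was made.

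Of the counts on 7 heavy chains, the adult fast chains Myh1, Myh2 and Myh4 held 81.2, 75.4 and 78.3% in Fc, 80.1, 73.9 and 80.7% in ABTAA, and 80.4, 72.9 and 83.3% in VEGF Trap. The developmental chains Myh3 and Myh8 held 10.7, 19.1 and 20.3%, then 10.5, 22.5 and 14.4%, and 13.4, 17.3 and 12.7% in the same libraries. Myh13 held 0.350 to 6.71% and Myh7 0.191 to 3.16%. All these heavy chain shares overlapped between the 3 groups.

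**Figure D3:**
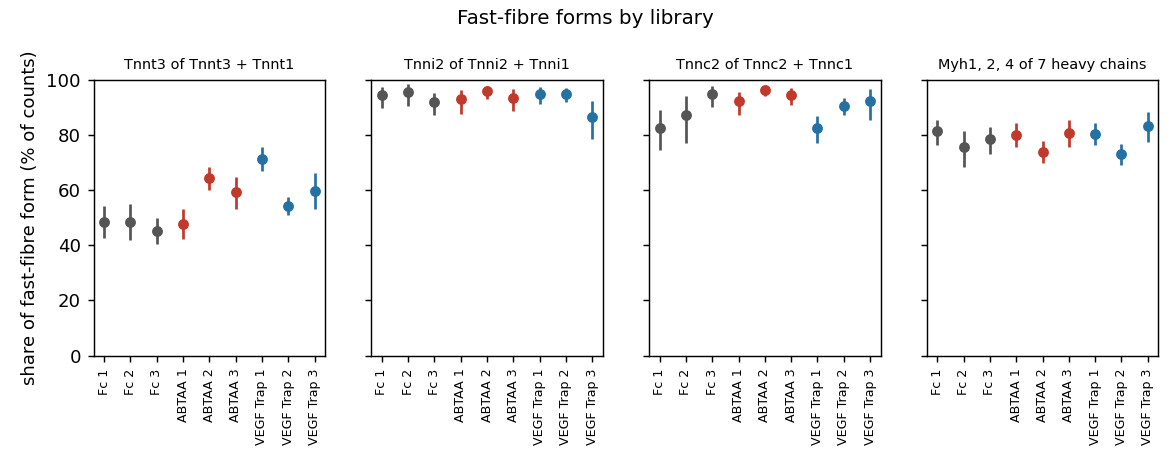
Share of counts held by the fast-fibre form in each library (points) with exact binomial 95% intervals (bars), for troponin T, I and C and for adult fast chains among 7 myosin heavy chains, with Tnnt3 counts divided by 4 and Tnni1 counts by 2. Troponin T ranges from 45% in Fc 3 to 71.3% in VEGF Trap 1, and the other 3 shares overlap between groups.

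Libraries of the same group differed in the members together. ABTAA 1 held the lowest ABTAA value for 31 of the 39 members, Fc 2 the lowest Fc value for 27, and VEGF Trap 2 the highest VEGF Trap value for 30. Of the highest values among all 9 libraries, ABTAA 2 held 20, ABTAA 3 held 9 and VEGF Trap 2 held 6. The median coefficient of variation of the members was 28.8% in Fc, 34.4% in ABTAA and 37.8% in VEGF Trap, beside 15.1, 17.3 and 17.5% for the 11572 genes in the same range of levels. In ABTAA 20 members, in VEGF Trap 20 and in Fc 14 differed more than 2-fold between libraries of the group.

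Single libraries each stood above Fc in part. Of the 39 members, 25 were above the highest Fc library in ABTAA 1, 32 in ABTAA 2 and 35 in ABTAA 3, and 26, 33 and 19 in VEGF Trap 1, 2 and 3. Over all genes the same share was 28.4 to 32.1% in each of these libraries. Without both ABTAA 2 and VEGF Trap 2, 0 members were called against Fc in either group. Of all genes 0 were then called in ABTAA and 31 in VEGF Trap. The medians of the members were 0.81 in ABTAA and 0.58 in VEGF Trap.

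The contrast of ABTAA with VEGF Trap did not choose the members, though it shares its libraries with those that did. At an adjusted p of 0.05 (edgeR) 0 members were called, beside 0% of all genes (0 higher and 0 lower of 14054). At an unadjusted p under 0.05 there were 6 members and 711 of all genes. DESeq2 and limma-voom called 0 members as well, and a fit with no filter on low counts called 2, Ldb3 (adjusted p = 0.0108, edgeR) and Tnnt2 (adjusted p = 0.0298, edgeR). The median log2 difference of the members was 0.39, with 31 of 39 above 0, beside 0.00 over all genes, and it was 0.63 without ABTAA 1, 0.16 without ABTAA 2, 0.61 without VEGF Trap 2 and 0.25 without VEGF Trap 3.

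The lowest adjusted p of a member was 0.852 by edgeR, for Tnnt2, which stood 1.06 ± 0.27 (log2) higher in ABTAA, with a 95% interval of 0.41 to 1.71 and all 3 ABTAA libraries above all 3 VEGF Trap libraries. Ldb3 followed with 0.87 ± 0.27 (0.22 to 1.52), then Myh4 with 0.60 ± 0.22 (0.07 to 1.13) and Tnnc2 with 0.82 ± 0.30 (0.08 to 1.56). Tbx1 (0.62 ± 0.24, interval 0.03 to 1.21) and Ckm (0.76 ± 0.30, interval 0.02 to 1.49) completed the 6. None of these differences passed the adjustment. The intervals use the 6 residual degrees of freedom, and for Tnnt3 the interval of -0.59 to 0.53 spans differences of either sign.

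Other muscle genes outside the 41 were taken from a list of 48 striated muscle genes, of which 29 passed the filter. Hspb7, a small heat shock protein of heart and skeletal muscle, was called higher in ABTAA (log2 fold change 1.41 ± 0.33, adjusted p = 0.0477, edgeR), being higher than Fc in 3 of 3 libraries, and 0 genes were called in VEGF Trap. The call was lost in 8 of the 9 fits that left out 1 library (all but VEGF Trap 1), with log2 fold changes of 1.08 to 1.65. The medians were 0.55 in ABTAA and 0.40 in VEGF Trap, with 24 and 21 of 29 above 0. The 3 genes named for their high counts, Tpm1, Tpm3 and Tpm2, tropomyosins that other cells also express, had ABTAA log2 fold changes of -0.25 ± 0.12, -0.07 ± 0.10 and 0.44 ± 0.12.

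Of 18 cardiac muscle genes 9 passed the filter. Pln, which restrains the cardiac and slow-fibre calcium pump and is also made by smooth muscle, was at 0.933, 1.53 and 0.763 CPM in Fc, 3.30, 4.16 and 7.19 CPM in ABTAA, and 3.15, 3.62 and 3.32 CPM in VEGF Trap. It was called higher in ABTAA (2.16 ± 0.43, adjusted p = 0.032, edgeR, 3 of 3 libraries above Fc) and missed the threshold in VEGF Trap (1.64, adjusted p = 0.0697, edgeR). The ABTAA call was lost without Fc 1, Fc 2, Fc 3, ABTAA 2 or ABTAA 3, with log2 fold changes of 1.79 to 2.5. The list had medians of 1.71 in ABTAA and 1.05 in VEGF Trap, with 7 and 5 of 9 above 0. Atp2a2, Casq2, Ankrd1 and Mybpc3 had ABTAA log2 fold changes of 0.11 ± 0.12, 0.44 ± 0.48, -0.13 ± 0.49 and -0.14 ± 0.62, and were not called. The cardiac actin Actc1 was at 0.467 to 0.933 CPM in Fc and 1.65 to 4.69 CPM in ABTAA (log2 fold change 2.21 ± 0.59, adjusted p = 0.0719, edgeR), and the atrial light chain Myl4 (1.92 ± 0.63) and the cardiac troponin I Tnni3 (1.71 ± 0.67) were not called either. The cardiac heavy chain Myh6 was at 0 in Fc 2 and Fc 3 and at 0.187 to 1.25 CPM in the other libraries, and its transcript end matches that of Myh7. The cardiac factor Nkx2-5 had 0 counts in all 9 libraries, Myl7 had 2 counts in total and Sln 1.

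Regulators of muscle formation were counted on a list of 16, of which 15 were in the tables and 9 passed, with 0 called in ABTAA or VEGF Trap. The satellite cell factors Pax7 and Myf5 had 3 counts each over all libraries, and Myod1 had 30. Of the genes of the neuromuscular junction, 5 of 10 passed and 0 were called in either contrast.

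**Figure D4:**
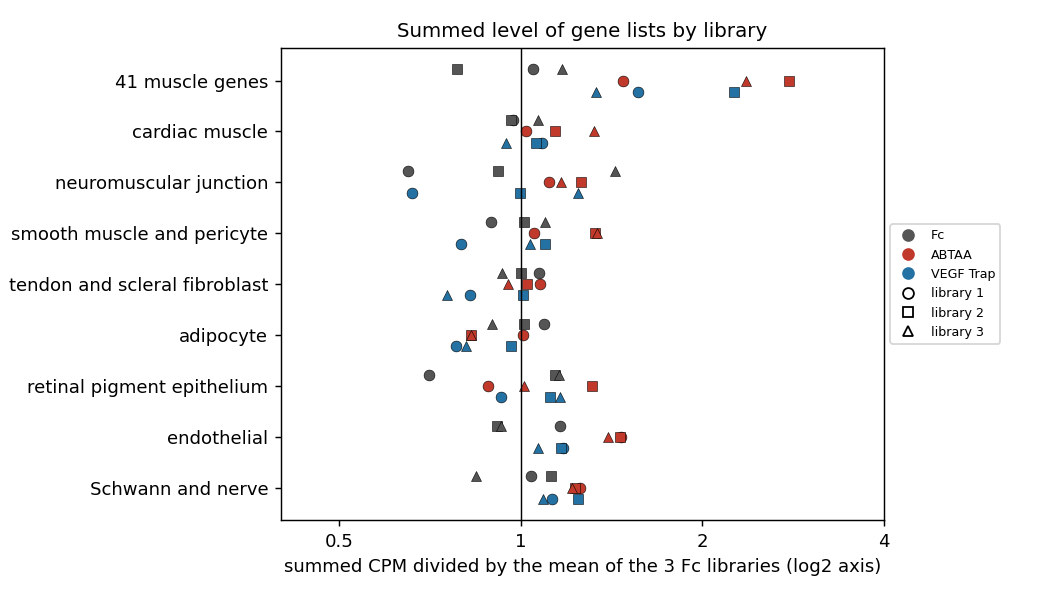
Summed CPM of the 41 members and of 8 other gene lists in each library, divided by the mean of the 3 Fc libraries (log2 axis); colour gives the group and the symbol gives the library number. The 41 members span 246 to 875 CPM, with all 6 treated libraries to the right of the Fc libraries.

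Markers of other cell types moved with the groups to differing degrees, and their part in the members' levels was not tested. Of 16 smooth muscle and pericyte genes, Smtn, an actin-binding protein of smooth muscle, was called higher in ABTAA (0.66 ± 0.14, adjusted p = 0.035, edgeR), and the summed level was 1190 to 1460 CPM in Fc, 1400 to 1780 CPM in ABTAA and 1060 to 1460 CPM in VEGF Trap. The 12 endothelial genes summed to 1840 to 2340 CPM in Fc, 2810 to 2960 CPM in ABTAA and 2150 to 2370 CPM in VEGF Trap, and 5 were called higher in ABTAA (Pecam1, Plvap, Eng, Cldn5 and Egfl7). Of 8 melanocyte genes, Pmel was called higher in both treated groups and Tyr in VEGF Trap, and of 10 macrophage genes C1qb was called lower in ABTAA. Without ABTAA 2 each of these ABTAA calls was lost, and 0 of all genes were called. Without Fc 2 the calls of Smtn, C1qb and the 5 endothelial genes were lost, and each ABTAA call was lost in 1 (Pmel) to 8 (C1qb) of the 9 fits that left out 1 library. The calls of Pmel and Tyr in VEGF Trap were lost without any 1 of the Fc or VEGF Trap libraries, and that of Tyr without ABTAA 1.

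Lists for tendon and sclera, fat and the ocular surface overlapped between groups. The 11 tendon and scleral fibroblast genes summed to 441 to 508 CPM in Fc, 452 to 511 CPM in ABTAA and 358 to 478 CPM in VEGF Trap, with 0 called. The adipocyte list summed to 172 to 210, 159 to 194 and 150 to 185 CPM, with Lep at 0 counts. Of 10 ocular surface and gland genes 0 passed the filter and 2 were at 0, with summed levels of at most 3.92 CPM. The Schwann and nerve list did not overlap between ABTAA and Fc, at 684 to 910 CPM in Fc, 989 to 1020 CPM in ABTAA and 884 to 1010 CPM in VEGF Trap, with 0 of 8 genes called. The RPE, photoreceptor, lens and erythrocyte lists had 0 genes called against Fc.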

How the data were processed

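The deposited values are raw counts for each gene symbol, in 1 column per library, which the authors made from LEXOGEN QuantSeq 3′ libraries, per the labels' protocols. Bowtie2, edgeR and the mm10 build are named in the submitters' processing notes. Their versions, the gene annotation, how reads were assigned to genes and strands, and what was done with multiply matching reads were not given in the sources used here.

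The members and all gene lists were chosen with earlier results of these data known. All 9 libraries entered 1 edgeR 4.0.16 fit (R 4.3.3), with groups taken from the titles, filterByExpr (minimum count 10), TMM scaling, the quasi-likelihood F-test and Benjamini-Hochberg adjustment over 14054 genes, with 6 residual degrees of freedom and a biological coefficient of variation of 17.9%. An SE was taken as the size of the log2 fold change over the root of its F statistic. The script was tested on simulated counts. Counts of replicate pairs differed by 8.12 to 19.3 times the chi-square that counting noise gives, so none was a duplicate.

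Values in every library were given for up to 4 members of highest mean CPM in each role and for all slow, cardiac-type, developmental, extraocular and craniofacial members that passed the filter. Of other lists, called genes were named, otherwise up to 3 of highest mean CPM. Outside this rule, all 9 cardiac genes that passed the filter were named. A930016O22Rik, Rabep2, Ube2c, Apol6 and the markers at or near 0 were chosen after seeing their values. Coordinates were read from GENCODE M21 and promoters from RefSeq. The last 200 bases of transcripts were compared with BLAST+ 2.17.0. Alternatives were DESeq2 1.42.0, limma-voom (limma 3.58.1), RLE, library totals, no filter, 10 counts in 6 libraries, the 2 groups compared alone, the replicate number as a block, counts divided by their common divisor and each library left out. The omission of ABTAA 2 and VEGF Trap 2 together was chosen after seeing the data. Protein sequences were not used here.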

Additional observations from a re-analysis of the deposited data

How the results depend on the processing

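In all settings, member medians stayed between 0.81 and 1.24 in ABTAA against Fc, between 0.57 and 0.88 in VEGF Trap against Fc and between 0.16 and 0.63 in ABTAA against VEGF Trap, and the direction of no called member reversed. Members called in ABTAA numbered 12, and 14 with DESeq2 (11 of the 12, while Pvalb had no adjusted p), 14 with limma-voom (all 12), 10 with library totals (Tnnt3 and Xirp2 lost), 18 with no filter (all 12) and 12 with counts over their common divisor (10 of the 12). In VEGF Trap 3 were called, and 9 with DESeq2 and 11 with no filter (all 3 among them) and 0 with library totals. Between ABTAA and VEGF Trap, no filter gave 2 members. With 1 library left out, members called ranged from 0 to 13 in ABTAA and from 0 to 4 in VEGF Trap. Myh7 and Actn2 were under the filter on low counts in the main fit, while all 41 members passed it in some fits with 1 library left out.

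Over all genes, 197 were called in ABTAA against Fc, and 750 with DESeq2, 411 with limma-voom, 684 with no filter, 301 with only the compared groups and 0 to 373 with 1 library left out. In VEGF Trap against Fc 144 were called, and 671 with DESeq2, 242 with limma-voom, 221 with library totals, 249 after division by the common divisor, 616 with no filter and 7 to 144 with 1 library left out. Between ABTAA and VEGF Trap 0 were called, 1 with DESeq2 and 30 with no filter. Omitting both ABTAA 2 and VEGF Trap 2, an omission chosen after seeing the data, gave 0 and 31 genes and 0 members in the contrasts with Fc (1659 and 1999 genes at an unadjusted p under 0.05). The cause of these differences was not tested.

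With the replicate number as a block, 334 genes and 13 members were called in ABTAA, 300 genes and 4 members in VEGF Trap, and 1 gene and 0 members between the reagents. Deviations of same-numbered libraries correlated by 0.01 to 0.11, and those of differently numbered libraries by -0.09 to 0.04. The RPE list was lowest in library 1 of every group (1270, 1590 and 1670 CPM in Fc, ABTAA and VEGF Trap). The erythrocyte list was lowest in library 3 of every group (209, 182 and 184 CPM). The main fit did not use the numbers, and whether they pair the samples or mark a batch was not tested.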

Other observations

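Myog, a factor of differentiating muscle cells, was ordered differently from the summed members within each treated group, though ABTAA 1 was the lowest ABTAA library for both. In Fc the order of the libraries was the same for Myog and the summed members. Myog was at 0.933, 0.763 and 2.14 CPM in Fc, 1.44, 4.46 and 15.0 CPM in ABTAA, and 0.911, 5.22 and 8.73 CPM in VEGF Trap, with log2 fold changes of 2.37 ± 0.79 in ABTAA (adjusted p = 0.133, edgeR) and 1.89 in VEGF Trap (adjusted p = 0.253, edgeR). Neither passed the threshold. ABTAA 3 and VEGF Trap 3, the highest of their groups for Myog, were not the highest for the summed members, which were at 741 and 419 CPM there against 875 CPM in ABTAA 2 and 709 CPM in VEGF Trap 2. Myog was chosen after its values were seen.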
